A study of Rattus norvegicus with 2 samples.

Results

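This report describes 6 rat microRNAs (miRNAs) that the field links to the tumour suppressor p53: rno-miR-34a, rno-miR-34b, rno-miR-34c, rno-miR-192, rno-miR-194 and rno-miR-215. They were chosen by name, as the non-control features of the array that carry exactly these miRNA names, without the passenger strands marked with an asterisk. All 6 were on the array, out of 350 rat miRNAs in all. Only miR-34a was detected, and it was detected on both arrays; the other 5 were not well above background on either.

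The study set squamous cell carcinoma of the rat tongue against normal rat tongue. Both arms were male Sprague-Dawley rats, 6 to 7 weeks old at the start, with 20 rats in each arm. The experimental arm took up the chemical carcinogen 4NQO at 0.02 g/l and the control arm received distilled water, and tissue was taken at the end of week 36. RNA was extracted from 7 tumours and 7 normal tongues, and 2 arrays were analysed, one of them labelled tumour and the other normal. The sources used here do not say whether an array held RNA of 1 animal or a pool, nor what share of each piece was carcinoma, muscle or connective tissue. A group thus holds 1 array, nothing checks its spread between animals, and no test was made. The error of a probe mean is the spread of its repeated spots within an array. The spot SE of a ratio combines that spread over the probes and both arrays. For negative controls the error is the SD over their spots, and for total signals it is the software's own. None measures a spread between animals, and the number of arrays limits the precision.

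p53 is a transcription factor that responds to DNA damage and other stress by arresting the cell cycle or starting cell death. miR-34a, miR-34b and miR-34c are among its best known miRNA targets, and they repress cell cycle and survival genes such as cyclins, CDKs, Met and Bcl2. miR-192, miR-194 and miR-215 are also induced by p53 in some cells and can raise the cell cycle inhibitor p21, but they are best known as abundant miRNAs of gut, liver and kidney. miR-34b and miR-34c are most abundant in ciliated epithelium, lung and testis, whereas miR-34a is expressed more widely.

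The mature sequences below, from RefSeq for rat assembly GRCr8, are shown because the 6 miRNAs fall into 3 groups by their seed. The capitals mark the seed, bases 2 to 8, which sets most target choice. All 6 names were matched by sequence, each array probe being an exact reverse complement of part of the mature miRNA.
miR-34a: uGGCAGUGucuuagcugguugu
miR-34b: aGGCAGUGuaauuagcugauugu
miR-34c: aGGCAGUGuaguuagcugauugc
miR-449a: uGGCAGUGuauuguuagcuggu
miR-192: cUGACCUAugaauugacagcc
miR-215: aUGACCUAugauuugacagaca
miR-194: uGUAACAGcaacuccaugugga
miR-449a is no member, but it was the only other miRNA matched on the array with the seed of miR-34, and it is itself a miRNA of ciliated cells. miR-34b and miR-34c were identical at 21 of 23 bases, and miR-192 and miR-215 at 18 of 21. miR-34a shared 11 of 22 with either miR-34b or miR-34c when aligned at base 1 without gaps, a count that misses likeness across an inserted base. miR-194 has a seed of its own.

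The genes of these miRNAs lie on 4 chromosomes in GRCr8. Mir34a lies on chromosome 5 without a miRNA gene beside it and overlaps a long non-coding RNA gene. Mir34b and Mir34c are neighbours on chromosome 8 and overlap the protein-coding gene Hoatz. Mir192 neighbours Mir194-2 on chromosome 1, and Mir215 neighbours Mir194-1 on chromosome 13, where both overlap Iars2. The mature miR-194 of both copies is the same, so the array cannot tell them apart. The array's own grid names the older build rn4, so no positions are given.

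Across the whole array, the software's flags put 104 of 350 miRNAs above the detection limit on the tumour-labelled array and 88 on the normal-labelled array. Detection of a probe needed over 50% of its unmarked spots to be well above background, and detection of a miRNA needed 1 such probe. The lowest signal of a detected probe was 18.3 and 18.2 intensity units, in that order. Some signals went against what the labels would lead one to expect: the skeletal muscle miRNA miR-1 was 13.2-fold higher on the tumour-labelled array after the scaling described below, and miR-21 and miR-31, both often raised in oral carcinoma, were 9.60-fold and 15.2-fold lower there. The arrays are named by label only, and a direction given here assumes that the labels are right.

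Of the 6 members, 1 was detected on the tumour-labelled array, against 29.7% of all miRNAs, and 1 on the normal-labelled array, against 25.1%. Of all miRNAs, 24.3% were detected on both arrays, as miR-34a was, and 69.4% were detected on neither, as the other 5 members were. So few members allow no statement that they were detected less often than other miRNAs.

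miR-34a, the p53 target found in most tissues, gave a clear signal. It was read by a pair of probes that differ by 1 base in length, shown because the 2 readings of 1 miRNA carry the result; capitals mark the bases that pair with its seed.
19-base probe: acaaccagctaagaCACTG
20-base probe: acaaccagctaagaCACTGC
The shorter probe covers bases 4 to 22 of miR-34a and the longer one bases 3 to 22. Their best ungapped match was 11 bases to miR-34b, 10 bases to miR-34c and 12 or 13 bases to miR-449a, none of which was detected by its own probes. An ungapped count misses likeness across an inserted base, so it understates how alike the probes and miR-34b or miR-34c are.

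On the tumour-labelled array, the 10 spots of the 19-base probe ran from 116.2 to 136.3 intensity units with a median of 121.4 and a mean of 122.8 ± 6.00 (spot SD). Its 10 spots on the normal-labelled array ran from 89.2 to 114.5, with a median of 99.7 and a mean of 100.8 ± 7.89. The spots of this probe did not overlap between the arrays, and before any scaling the tumour-labelled array was the brighter one. How many other probes had no overlap was not counted. The median unscaled log2 ratio of the 85 miRNAs measured on both arrays was 0.46, against 0.28 for miR-34a.

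The 20-base probe was brighter on both arrays and gave the same picture. Its 10 spots on the tumour-labelled array ran from 323.6 to 375.6 intensity units, with a median of 347.0 and a mean of 347.3 ± 18.9. They ran from 240.4 to 311.4 on the normal-labelled array, with a median of 289.8 and a mean of 286.0 ± 23.0. Again the spots did not overlap, which describes repeats within an array and not a spread between animals. As other probes were not counted for overlap, nothing particular to miR-34a is read from this. The longer probe gave 2.83-fold the signal of the shorter one on the tumour-labelled array and 2.84-fold on the normal-labelled array, so both probes carried the same ratio between arrays.

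The software's own total for rno-miR-34a, the value that the authors deposited in their value table, was 311.9 ± 24.7 intensity units (software error) on the tumour-labelled array and 256.7 ± 20.4 on the normal-labelled array, a ratio of 1.22 without scaling. It stood 33rd of 104 detected miRNAs by total signal on the tumour-labelled array, between miR-378 (316.6) and miR-99a (234.9), with miR-29c and miR-15b the next ones out. On the normal-labelled array it stood 26th of 88, between miR-1 (256.9) and miR-15b (254.0), with miR-26a and miR-223 next. These places order signals, which vary with the probe, and say nothing of abundance. miR-34a made up 0.673% of the summed signal on the tumour-labelled array and 1.02% on the normal-labelled array.

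Which array had more miR-34a depended on the scaling. To set the arrays on a common scale, signals were divided by the 75th percentile of the 140 probes that both arrays detected, which was 525.6 units on the tumour-labelled array and 277.5 on the normal-labelled array, 1.89-fold apart. On that scale the 19-base probe stood at 0.234 on the tumour-labelled array and 0.363 on the normal-labelled array, and the 20-base probe at 0.661 and 1.03. The log2 ratio, tumour-labelled over normal-labelled, was -0.64 (spot SE 0.03), or 1.56-fold lower on the tumour-labelled array. The 2 probes gave log2 ratios of -0.64 and -0.64. Paired by position on the array, the 10 spots of the shorter probe ran from -0.87 to -0.41 in log2 ratio after scaling. Those of the longer one ran from -0.72 to -0.42. All 20 pairs were thus below 0 after scaling and above 0 before it, so the scaling set their sign. They are repeated spots of 1 miRNA on 2 arrays. Without scaling the log2 ratio of miR-34a was 0.28 and lay above 0.

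The ratio was under 2-fold under all 17 other ways of processing. It lay below 0 in 15 of them and above 0 in 2: without scaling, at 0.28, and when the arrays were scaled on 19 positive control features, at 0.055. These 17 are not independent, so the count of 15 does not measure how firm the sign is. Several kept the reported scaling rule and changed only spots, probes or filters. The total gene signal and the deposited value table both gave -0.85. The skeletal muscle list had a summed scaled level of 19.4 over 5 detected members of 7 on the tumour-labelled array, against 3.18 over 5 on the normal-labelled array. Most of the first sum came from miR-1 (8.97) and miR-133b (7.54), followed by miR-206 (2.17). The other members of that list, miR-208 and miR-499, were detected on neither. Leaving the muscle list out of the percentile brought the log2 ratio of miR-34a to -0.33. The part of muscle RNA in the scaling of miR-34a was not tested beyond this value.

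**Figure D1:**
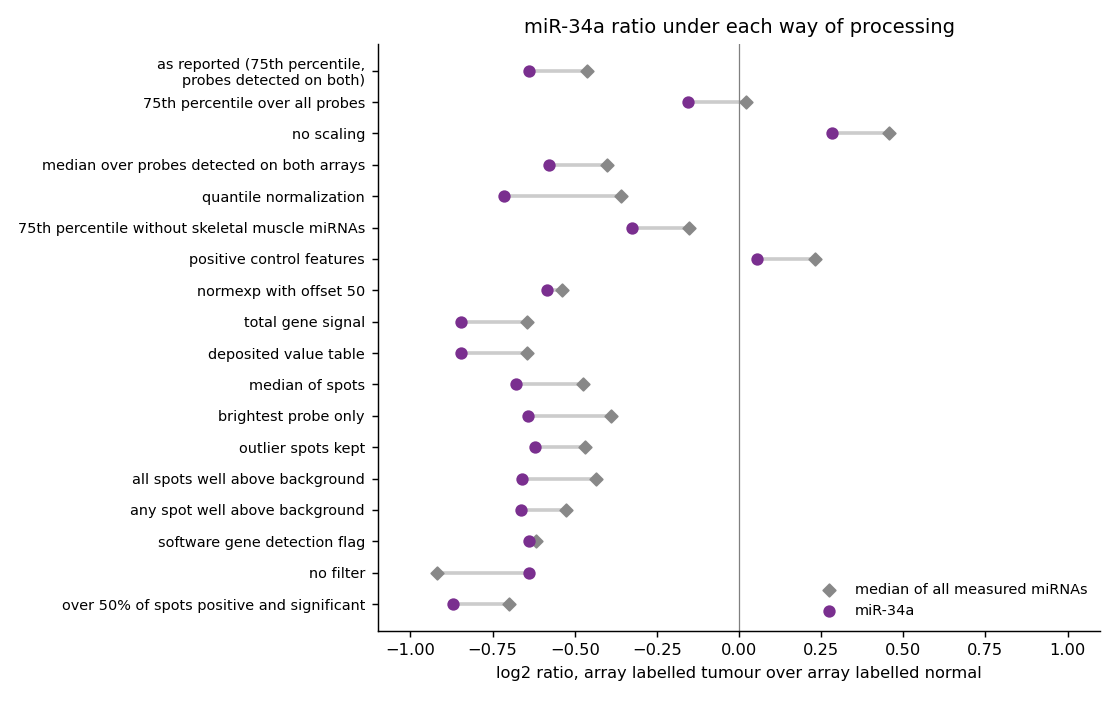
The log2 ratio of miR-34a (purple) and the median log2 ratio of all measured miRNAs (grey) under the reported processing, at the top, and 17 alternatives; values left of 0 are lower on the tumour-labelled array. miR-34a runs from -0.87 to 0.28 and lies left of the median in 16 of the 17 alternatives; the gap between them stays the same under scaling by a common factor and changes under the other alternatives.

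A common scaling factor leaves the place of miR-34a among other miRNAs as it is. Its log2 ratio was the 34th lowest of the 85 measured on both arrays, 0.18 below their median of -0.46 and inside their middle range of -0.88 to 0.63 (25th to 75th percentile). Among the 85, 12.9% reached 2-fold in favour of the tumour-labelled array and 22.4% in favour of the normal-labelled array, and miR-34a was in neither group. Another 21 miRNAs had a log2 ratio within 0.25 of it. The 5 nearest over the 2 arrays were miR-20a (-0.64), miR-19b (-0.65), miR-652 (-0.65), miR-16 (-0.62) and miR-200b (-0.61). With 2 arrays such nearness is 1 number alone, and a difference of 0.03 between ratios is of the size of the spot error.

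The neighbouring pair miR-34b and miR-34c, which share the seed of miR-34a, gave no signal above the detection limit. For rno-miR-34b the unmarked spots on the tumour-labelled array had means of -1.89 ± 2.61 (20-base probe) and 1.17 ± 2.74 (21-base probe) intensity units, and 0 of 19 spots were well above background. The means on the normal-labelled array were 0.426 ± 2.75 and 5.93 ± 2.95, and again 0 of 19 spots passed. The highest unmarked spot of miR-34b was 6.46 on the tumour-labelled array and 11.7 on the normal-labelled array, both under the lowest signal of a detected probe.

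For rno-miR-34c the values were lower still. Its probe means were -2.02 ± 1.35 (19-base probe) and -1.27 ± 3.99 (20-base probe) on the tumour-labelled array, over 18 unmarked spots. They were -1.93 ± 2.03 and 0.998 ± 3.31 on the normal-labelled array, over 16 unmarked spots. A spot of 19.7 units on the normal-labelled array was marked as an outlier and left out, and with marked spots kept miR-34c was still not detected. The probes of miR-34b match miR-34c at 19 of 20 and 20 of 21 bases, so signal of the one could also reach the probes of the other, but neither set of probes was above the limit. The passenger strand miR-34c*, outside the 6 members, was not detected on either array, and neither was miR-449a, whose probe means ran from -2.40 to 3.18 units. The 3 miRNAs on the list of ciliated epithelium markers, miR-449a, miR-34b and miR-34c, were thus all undetected on both arrays. Of all miRNAs, 69.4% were detected on neither array, so nothing is read from this count.

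In the pair that shares a seed, miR-192 was the brightest of the undetected members and miR-215 the dimmest. The 19-base probe of rno-miR-192 had a mean of 6.91 ± 4.18 intensity units on the tumour-labelled array and 6.75 ± 2.75 on the normal-labelled array, while its 18-base probe had 1.45 ± 2.16 and 3.16 ± 3.64. Its highest unmarked spots were 17.1 and 11.6 units, just under and well under the detection limit of about 18 units. A spot of 31.0 units on the tumour-labelled array was marked as an outlier.

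rno-miR-215 had probe means of -2.07 ± 2.19 and -2.99 ± 1.64 on the tumour-labelled array and of -2.68 ± 1.70 and -2.77 ± 1.72 on the normal-labelled array. Its highest unmarked spots were 1.42 and -0.322 units. All 4 means were below 0 after background subtraction, although its probes match miR-192 at 17 of 19 and 18 of 20 bases. rno-miR-194, which is made from a shared locus with either miRNA, had means of 1.74 ± 2.20 (16-base probe) and -2.90 ± 3.34 (15-base probe) on the tumour-labelled array and 1.75 ± 2.20 and -1.32 ± 3.21 on the normal-labelled array. Of its unmarked spots 0 of 18 and 0 of 20 were well above background. A miR-194 spot of 24.3 units on the tumour-labelled array was well above background but marked as an outlier and left out. With marked spots kept, the 16-base probe had a mean of 4.00 there, and miR-194 was still not detected.

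How near to background these 5 lay can be read from the negative control spots. On the tumour-labelled array, 655 unmarked negative control spots had a mean of 0.615 ± 3.04 intensity units and a 95th percentile of 5.59. On the normal-labelled array 642 had a mean of 1.67 ± 3.02 and a 95th percentile of 6.90. The 5 members together had 9 of 92 unmarked spots above that percentile on the tumour-labelled array (9.78%) and 6 of 91 on the normal-labelled array (6.59%). Over all 243 miRNAs detected on neither array the shares were 15.2% and 9.34%. These shares rest on few spots, and no difference between members and other undetected miRNAs is read from them.

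Of the members' spots above the percentile, miR-192 held 6 of the 9 on the tumour-labelled array and 4 of the 6 on the normal-labelled array. A less strict flag of the software, signal significantly above background, was set for 11 of 18 unmarked spots of miR-192 on the tumour-labelled array and 14 of 19 on the normal-labelled array. For miR-34b it was set for 1 of 19 and 11 of 19. Over the 5 members this flag was set for 15 of 92 unmarked spots on the tumour-labelled array (16.3%) and 30 of 91 on the normal-labelled array (33.0%), against 21.5% and 19.5% over all 243 undetected miRNAs. Under a rule of more than 50% such spots per probe, chosen after seeing the data, miR-192 would count as detected on both arrays and miR-34b on the normal-labelled array alone. That rule calls 49.7% and 43.4% of all miRNAs, and it is loose, since the same flag was set for 14.8% and 26.0% of negative control spots. No fold is given for any of the 5, because both arrays were below the detection limit. They were not detectable at this sensitivity, which does not show that they are absent from the tissue.

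The liver, gut and kidney list, which holds miR-192, miR-194 and miR-215, had 7 of 9 members detected on neither array, near the 69.4% of all miRNAs, so nothing is read from the count. Among the 7 were miR-122, the main miRNA of liver, and miR-375, a miRNA of endocrine and gut epithelium. Those detected were miR-204, on the tumour-labelled array alone, and miR-30a, on both. Of the epithelium list, 7 of 7 members were detected on each array, against 29.7% of all miRNAs on the tumour-labelled array and 25.1% on the normal-labelled array. Their summed scaled level was 3.99 on the tumour-labelled array and 6.76 on the normal-labelled array. The median log2 ratio of that list was -0.61, against -0.46 over all 85 measured miRNAs. Without scaling it was 0.31, against 0.46 over all 85. The list median lay close to the value of miR-34a, as did many single miRNAs. What share of the miR-34a signal came from epithelium was not tested.

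Other miRNAs tied to p53 were read from a list drawn from general knowledge: direct targets, miRNAs whose processing p53 helps, and miRNAs it represses. Besides the 6 members it named 22 miRNAs, of which 20 were on the array under those names and 18 were measured on both arrays. Of the 18, 7 had ratios above 0 and 11 below 0 after scaling, against 32 and 53 of all 85 measured miRNAs. On the tumour-labelled array 1 was past 2-fold upwards, where 12.9% of all 85 were, and 3 past 2-fold downwards, where 22.4% were. Their median log2 ratio was -0.44, against -0.46 over all 85, a gap of 0.02 between the medians. The split moved with the scaling: without it, 6 of the 18 passed 2-fold upwards, 0 passed it downwards and the median was 0.48. Over all 85 the shares without scaling were 32.9% and 5.88% and the median 0.46, so these counts are near the background and are no result about the list. The list also pools miRNAs that p53 raises with miRNAs it represses, so its counts and median mix opposite expected directions.

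Single miRNAs of that list went in both directions. The 1 past 2-fold upwards was miR-29c, of a family that can raise p53 activity by repressing its regulators, at 4.05-fold (log2 ratio 2.02). miR-26a, a repressor of the cell cycle, stood at 0.96 and miR-143, a smooth muscle miRNA whose maturation p53 promotes, at 0.82. Its partner miR-145 was detected on neither array.

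Those past 2-fold downwards were miR-141 (log2 ratio -1.26) and miR-183 (-1.01), both epithelial, and miR-15b (-1.05), which targets Bcl2. miR-200c, the neighbour of miR-141 and a p53 target that holds cells in the epithelial state, stood at -0.90, and miR-106b, a relative of miR-17 that promotes the cell cycle, at -0.85. None of the 3 lower calls reached 2-fold without scaling, where miR-141 was at -0.34, miR-15b at -0.12 and miR-183 at -0.092. They were the only measured miRNAs of that list below 0 without scaling.

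**Figure D2:**
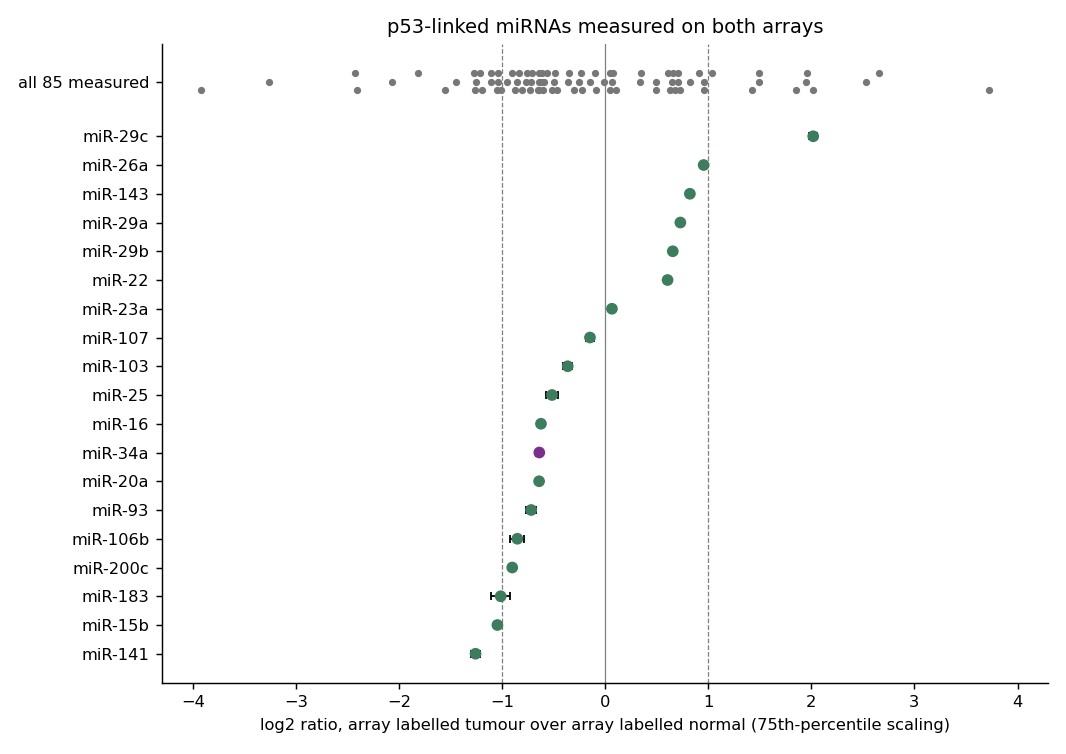
Log2 ratios of the 19 p53-linked miRNAs measured on both arrays, with miR-34a in purple and the others in green, beside all 85 measured miRNAs in grey at the top; bars are spot SE, hidden where smaller than the point, and dashed lines mark 2-fold. The list spans -1.26 to 2.02 with miR-34a, at -0.64, among the lower ones.

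miRNAs that target the p53 mRNA itself formed a second list of 11, with 9 on the array and 6 measured on both. Of these 6, 1 had a ratio above 0 and 5 below 0, against 32 above and 53 below 0 among all 85 measured miRNAs. On the tumour-labelled array 1 of the 6 passed 2-fold downwards, against 22.4% of all 85. The median was -0.57, against -0.46 over all 85, and 0.35 without scaling. miR-125b-5p, the best known repressor of p53 mRNA, stood at -0.10 with scaled levels of 1.05 and 1.11. miR-221, from a pair better known for repressing the cell cycle inhibitor p27, was lowest at -2.43. The others were miR-125a-5p (-0.83), miR-16 (-0.62), miR-25 (-0.52) and miR-30d (0.49). Without scaling only miR-221 was below 0, at -1.51, and miR-30d stood at 1.41. Past 2-fold were then miR-221 downwards and miR-30d upwards, where 5.88% and 32.9% of all 85 were.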

How the data were processed

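Cy3-labelled RNA was hybridised to 1-colour Agilent miRNA arrays, 2 arrays on 1 slide in 1 scan. The deposited intensity of each spot was made by the authors with Agilent Feature Extraction 10.5.1.1, with background subtraction and spatial detrending, per the file headers. Its flags of 0 or 1 are also deposited. Per the labels, RNA was labelled with a kit meant for messenger RNA. In the deposited value table, miRNAs above 1 equal the total gene signal of the scanner files (relative tolerance 1e-05), and the rest are set to 1. Its column medians were 1.70 and 1.32.

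Unmarked spots were averaged per probe; 248 and 336 of 7000 spots were marked and 0 were saturated. Signals were scaled to the 75th percentile of probes that both arrays detected, floored at the lowest detected signal and put on the log2 scale. Ratios of a miRNA's probes measured on both were averaged. A call is 2-fold, with no test. Named miRNAs are the members, the 5 nearest in ratio, neighbours in signal, miRNAs of the same seed and up to 8 per list. Members and lists were chosen with earlier results of these data known. Of the 350 names, 304 matched a RefSeq mature miRNA by sequence. Alternatives, 16 planned and 1 added, used limma 3.58.1 for normexp with an offset of 50. The steps were tested on simulated data. The median shift of the miRNAs known to be unchanged was removed there before calls were counted, so the scaling itself was not tested.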

Additional observations from a re-analysis of the deposited data

How the results depend on the processing

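miR-34a stayed under 2-fold in all 17 alternatives, and the other 5 members stayed undetected with outlier spots kept and under every filter tried except 2: with no filter all 6 count on each array, and with more than 50% of spots significantly above background, chosen after seeing the data, 2 count on the tumour-labelled array and 3 on the normal-labelled array. The log2 ratio of miR-34a was -0.16 with the 75th percentile over all probes, 0.28 without scaling, 0.055 with positive control features as the scale, -0.33 with muscle miRNAs left out of it, -0.85 with the total gene signal and with the deposited value table, and -0.87 with the significance filter. In the same order the median of the other p53-linked miRNAs was 0.044, 0.48, 0.25, -0.13, -0.62 and -0.62 up to the value table, with -0.29 under quantile normalization and -0.63 with no filter. That of the miRNAs targeting p53 mRNA was -0.086, 0.35, 0.12, -0.26, -0.77 and -0.77, with -0.88 under no filter and -0.79 under the significance filter.

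The other p53-linked miRNAs at least 2-fold higher numbered 6 with all probes, without scaling and on the control features, 4 without muscle, 2 with scaling on the median and 0 with normexp. Those at least 2-fold lower numbered 0 in these, except 1 with scaling on the median, and 5 with the total gene signal and with the value table, and 6 with the significance filter. The list had 18 measured miRNAs, and 19 with the significance filter. Over all 85 measured miRNAs, 23, 28, 27, 18, 13 and 3 were at least 2-fold higher in the same order. Those lower numbered 7, 5, 6, 8, 15 and 8, and 24 with the total gene signal and with the value table. With the significance filter 51 of 141 were lower. No result about the list is read from these counts. Scaling by a common factor adds the same amount to every log2 ratio. No paired analysis was possible because each group holds 1 array, and no array could be left out. Detection was limited by signal over background, about 18 intensity units on either array.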
